A study of Homo sapiens with 8 samples.

Results

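The 38 genes described here encode the enzymes and transporters that carry glucose carbon through glycolysis, the pentose phosphate pathway and the tricarboxylic acid (TCA) cycle. They were chosen by gene symbol, as a list of pathway members set with earlier results of these data known. All 38 were found among the 26364 genes of the expression table. RNA was sequenced from MV4-11 cells, a human acute myeloid leukemia (AML) line that carries the MLL-AF4 fusion and a FLT3 internal tandem duplication, so that every group shares these lesions and comes from 1 line. Control cells received vehicle (DMSO). The other groups received TCP (tranylcypromine, an inhibitor of the histone demethylase LSD1) at 5 μM, palbociclib (an inhibitor of the kinases CDK4 and CDK6) at 0.5 μM, or the combination of both at these doses. The labels give day 4 for all groups, while the study's methods describe palbociclib alone for the first day and both molecules for the remaining days, so whether TCP alone was given for all 4 days is not settled. Each group had 2 libraries, and neither the labels nor the methods say that these came from separate cultures, so the p-values measure the spread between libraries, which may be technical.

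In glycolysis, hexokinase traps glucose as glucose 6-phosphate, phosphofructokinase commits it to breakdown, and the lower enzymes turn it into pyruvate with a gain of ATP. Pyruvate is then reduced to lactate and exported, or enters the mitochondrion, where pyruvate dehydrogenase feeds it into the TCA cycle. Glucose 6-phosphate may instead enter the pentose phosphate pathway, which makes NADPH and the ribose of nucleotides. Proliferating leukemic blasts are known for high glucose uptake and lactate output, while neutrophils and monocytes express their own hexokinase isoform, HK3, and use NADPH for the oxidative burst.

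Expression is given as TPM, a read count divided by gene length and brought to 1 common sum in every library, so that the levels of different genes can be compared. Changes are log2 fold changes of TPM + 1 from limma, with their standard error (SE) and a p-value adjusted by Benjamini-Hochberg over all 14151 genes tested, a scale on which low genes appear to change less than they do. All 38 genes passed the filter of at least 1 TPM in at least 2 libraries. A gene was counted as a DEG at a log2 fold change of at least 1 in either direction and an adjusted p below 0.01. Genes with an adjusted p below 0.05 at any fold were counted beside them, and "rose" and "fell" are used of these. Where adding the replicate number to the model as a block changed the call of a member, its value is given too. In bulk RNA, fewer cells with a transcript and less of it per cell cannot be told apart.

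Under palbociclib, 10 of the 38 genes were DEG, 3 higher and 7 lower, where 9.10% of all genes tested were DEG (4.54% higher and 4.56% lower). Under the combination, 12 were DEG, 4 higher and 8 lower, against 13.7% of all genes (5.87% higher and 7.82% lower). TCP alone gave 0 DEG among the 38 by limma, against 0.0565% of all genes. An unadjusted p below 0.05 was reached by 3 of the 38 and by 1241 of the 14151 genes tested. The 4 genes that rose as DEG were HK2, HK3, PFKFB3 and PGD, and the 9 that fell as DEG in at least 1 of these comparisons were SLC2A3, SLC16A1, PFKFB4, ALDOC, ENO2, LDHA, LDHB, PDK1 and IDH2. With an adjusted p below 0.05, 5 genes rose and 22 fell under palbociclib, where 14.8% of all genes rose and 30.2% fell. Under the combination 8 rose and 21 fell, where 15.9% of all genes rose and 37.6% fell. The median log2 fold change of the 38 genes was -0.37 under palbociclib and -0.52 under the combination, and that of all genes tested was -0.16 and -0.22. These counts depended on the scaling, and the shares of all genes above hold for the main fit only. The median of all genes moved too, under palbociclib to -0.05 with quantile normalization and -0.01 with median-ratio scaling. Under the combination it moved to -0.07 and -0.01. With quantile normalization 9 rose and 20 fell under palbociclib and 9 and 21 under the combination, and with median-ratio scaling 9 and 18, and 10 and 19. The comparisons with control share the same control libraries.

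**Figure D1:**
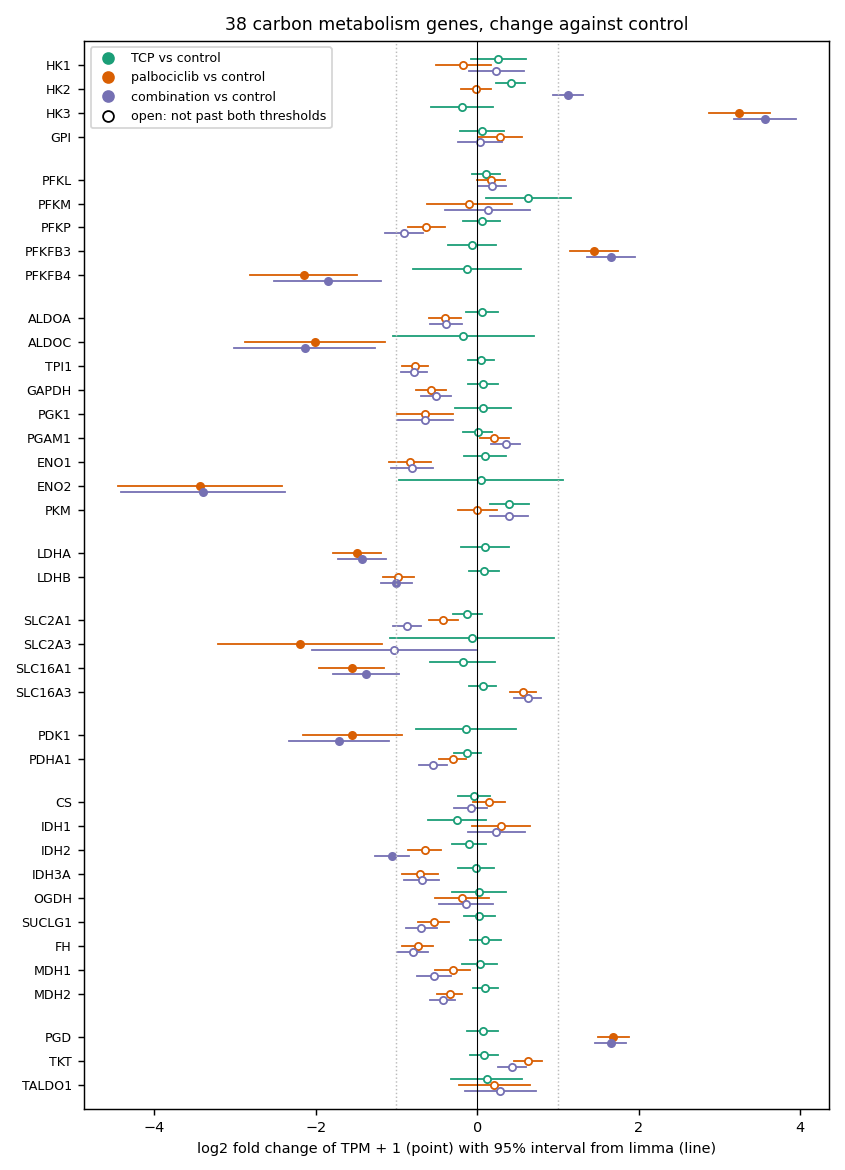
Log2 fold change of TPM + 1 against control (horizontal axis) for each of the 38 genes (vertical axis, grouped by pathway step), for TCP, palbociclib and the combination. Points are limma estimates and lines their 95% intervals; filled points are DEG. HK3, PFKFB3 and PGD lie far to the right and ENO2, PFKFB4, ALDOC, LDHA, SLC16A1 and PDK1 far to the left with palbociclib, with and without TCP. The TCP points lie between -0.25 (IDH1) and 0.63 (PFKM), and the TCP intervals of PFKM, HK2 and PKM exclude 0.

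Bases upstream of the transcription start are shown for 5 of the DEG, chosen because they hold at least 1 of the motifs searched. Of the motifs searched, ACGTG is the core of the hypoxia response element and CACGTG, which contains it, is the E-box read by MYC. TGACNNNGC is the core of the antioxidant response element read by NRF2, and GAGGAA is a core bound by the myeloid factor PU.1. The sequences are from RefSeq promoters (GRCh38.p14), read in the 250 bases before the start. Of the 38 genes 35 were found there, and all 35 windows matched GRCh37 (hg19, the build of the files) exactly once, from which the coordinates are given. Bases in exons of the same gene were left out of the sequences shown, while the counts of windows with a motif use all 250 bases. ENO2 also holds ACGTG, but its window lies in its own exons and is not shown, and the windows of PFKFB3, PFKFB4, PDK1, LDHB and IDH2 hold none of the motifs. The capitals mark ACGTG on either strand in LDHA, ALDOC and HK2, GAGGAA in HK3 and TGACNNNGC in PGD, where ACGTG is left in lower case. ALDOC also holds TGACNNNGC, on the other strand, which is left in lower case.
LDHA, chr11:18415860-18416106, plus strand: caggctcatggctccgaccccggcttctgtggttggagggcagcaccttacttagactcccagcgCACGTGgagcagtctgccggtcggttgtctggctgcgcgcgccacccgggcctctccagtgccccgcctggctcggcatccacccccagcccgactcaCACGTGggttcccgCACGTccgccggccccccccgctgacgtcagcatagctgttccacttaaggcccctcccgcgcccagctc
ALDOC, chr17:26903967-26904163, minus strand: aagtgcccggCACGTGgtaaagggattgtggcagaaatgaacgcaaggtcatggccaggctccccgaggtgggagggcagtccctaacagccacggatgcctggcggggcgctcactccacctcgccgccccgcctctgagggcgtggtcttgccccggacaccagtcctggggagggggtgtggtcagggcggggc
HK2, chr2:75061004-75061253, plus strand: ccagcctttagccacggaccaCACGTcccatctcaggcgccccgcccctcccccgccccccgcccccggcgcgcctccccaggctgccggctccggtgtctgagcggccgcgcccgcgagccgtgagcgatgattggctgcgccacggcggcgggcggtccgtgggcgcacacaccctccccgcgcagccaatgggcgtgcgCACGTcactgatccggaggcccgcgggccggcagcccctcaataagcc
HK3, chr5:176326348-176326597, minus strand: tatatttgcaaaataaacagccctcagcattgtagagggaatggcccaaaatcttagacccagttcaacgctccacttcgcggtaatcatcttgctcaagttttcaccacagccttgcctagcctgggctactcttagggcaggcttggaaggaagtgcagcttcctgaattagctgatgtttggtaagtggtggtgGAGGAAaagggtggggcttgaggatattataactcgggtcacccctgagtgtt
PGD, chr1:10458871-10459100, plus strand: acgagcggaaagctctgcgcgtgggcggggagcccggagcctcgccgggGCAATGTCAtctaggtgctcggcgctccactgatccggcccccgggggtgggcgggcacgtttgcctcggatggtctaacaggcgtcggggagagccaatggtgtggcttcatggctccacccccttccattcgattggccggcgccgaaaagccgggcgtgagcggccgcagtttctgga

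LDHA held 3 stretches in capitals, which begin 185, 87 and 73 bases before the start, and those at 185 and 87 are whole E-boxes. ALDOC held an E-box at 240 bases before the start and HK2 held ACGTG at 229 and 48 bases before it. ACGTG was present, on either strand, in 10 of the 35 windows (28.6%), in 23.6% of the windows of all tested genes with an entry and in 18.7% of all windows in the table. It was present in 3 of the 7 genes with an entry that fell as DEG (LDHA, ENO2 and ALDOC), in 2 of the 4 that rose as DEG (PGD and HK2) and in 5 of the other 24. CACGTG was in 3 of the 35 windows (LDHA, GAPDH and ALDOC; 8.6%), against 9.0% of the windows of tested genes and 6.5% of all windows. TGACNNNGC was in 5 (PGD, GAPDH, PKM, ALDOC and PFKL; 14.3%), against 12.3% and 11.0%. Of these genes, PGD rose as DEG and ALDOC fell as DEG. GAGGAA was in 5 of the 35 (14.3%), against 23.1% and 23.4%, and HK3 was the only DEG with an entry that held it. These are matches of letters, and binding of any factor was not measured here.

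Glucose uptake falls to facilitated transporters, here SLC2A1 (GLUT1), the basal carrier of most cells, and SLC2A3 (GLUT3), a carrier of higher affinity. SLC2A3 (chromosome 12, 8071826 to 8171603 of GRCh37) was at 69.8 and 49.8 TPM in control, 94.6 and 33.3 TPM with TCP, 12.4 and 11.8 TPM with palbociclib alone and 31.4 and 25.7 TPM with both molecules. The palbociclib libraries were the lowest and did not overlap any other group, and the combination libraries lay between them and control. Its log2 fold change was -2.20 (SE 0.43) under palbociclib (limma adjusted p = 0.00618) and -1.03 under the combination (limma adjusted p = 0.0815, 0.0283 in the blocked model). Combination against palbociclib gave 1.17 (limma adjusted p = 0.224). SLC2A1 was at 74.5 and 79.6 TPM in control, 71.7 and 69.8 TPM with TCP, 56.7 and 58.1 TPM with palbociclib alone and 40.4 and 42.9 TPM with both molecules. It fell stepwise, with no overlap between groups, by 0.42 on the log2 scale under palbociclib (limma adjusted p = 0.00429) and by 0.87 under the combination (limma adjusted p = 0.000152). It was lower by a log2 fold change of -0.45 in the combination than under palbociclib (limma adjusted p = 0.0277). The summed TPM of both carriers was 137 ± 10.5 (SD, n = 2) in control, 69.5 ± 0.511 under palbociclib and 70.2 ± 2.31 under the combination. SLC2A3 supplied 43.5% ± 6.997 of that sum in control, 17.4% ± 0.729 with palbociclib alone and 40.6% ± 4.43 with both (SD, n = 2). The SLC2A3 call under palbociclib missed the threshold when any 1 control, palbociclib or combination library was left out (limma adjusted p from 0.0139 to 0.0405). SLC2A1 in combination against palbociclib no longer passed with median-ratio scaling or when any 1 control, palbociclib or combination library was left out (limma adjusted p from 0.0525 to 0.19).

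Lactate leaves the cell through monocarboxylate transporters, SLC16A1 (MCT1), which carries lactate both ways, and SLC16A3 (MCT4), the exporter of strongly glycolytic cells. SLC16A1 (chromosome 1, 113454469 to 113500215) was at 79.7 and 71.0 TPM in control, 71.4 and 61.6 TPM with TCP, 28.3 and 22.0 TPM with palbociclib alone and 32.6 and 24.6 TPM with both molecules. It was lower in all 4 libraries with palbociclib than in the 4 without. Its log2 fold change was -1.55 (SE 0.17) under palbociclib (limma adjusted p = 0.000658) and -1.38 under the combination (limma adjusted p = 0.000677). SLC16A3 was at 272 and 273 TPM in control, 277 and 293 TPM with TCP, 388 and 419 TPM with palbociclib alone and 415 and 425 TPM with both molecules. It rose, by a log2 fold change of 0.57 (limma adjusted p = 0.000963) and 0.63 (limma adjusted p = 0.000413). The ratio of SLC16A3 to SLC16A1 was 3.62 ± 0.302 in control, 4.32 ± 0.625 with TCP, 16.4 ± 3.74 with palbociclib alone and 15.0 ± 3.21 with both (SD, n = 2).

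Hexokinases showed the largest increase and the only DEG between the combination and palbociclib. HK3 (chromosome 5, 176307870 to 176326347) was at 11.5 and 9.64 TPM in control, 8.72 and 9.52 TPM with TCP, 98.8 and 119 TPM with palbociclib alone and 118 and 155 TPM with both molecules. The libraries with palbociclib lay far above the other 4, at 10.3 times control under palbociclib and 12.9 times under the combination. Its log2 fold change was 3.25 (SE 0.16, limma adjusted p = 4.86e-05) and 3.56 (limma adjusted p = 2.18e-05). Combination against palbociclib gave 0.32 with a 95% interval from -0.06 to 0.70 (limma adjusted p = 0.372).

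HK2 (chromosome 2, 75061254 to 75120486), the inducible hexokinase of proliferating cells, was at 66.7 and 73.7 TPM in control, 95.2 and 92.3 TPM with TCP, 67.2 and 72.05 TPM with palbociclib alone and 154 and 153 TPM with both molecules. Palbociclib and control overlapped, TCP lay above both and the combination above all other libraries. The log2 fold change of HK2 was 0.41 (SE 0.08) under TCP (limma adjusted p = 0.113), and, with palbociclib alone, -0.01 (95% interval from -0.20 to 0.17, limma adjusted p = 0.919). It was 1.12 under the combination (limma adjusted p = 7.48e-05). Against palbociclib, the combination was higher by 1.13 (limma adjusted p = 0.00202). HK2 was the only DEG among the 38 in this comparison, where 0.502% of all genes were DEG. The interaction of both molecules, that is the change under the combination beyond the sum of the single changes, was 0.72 (SE 0.11) for HK2, with an unadjusted p of 0.000342 and a limma adjusted p of 0.210 (0.106 in the blocked model). The call against palbociclib was lost when either palbociclib library or either combination library was left out, with limma adjusted p from 0.0260 to 0.0427 and log2 fold changes from 1.08 to 1.18.

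HK1, the constitutive hexokinase bound to mitochondria, was between 51.9 and 83.4 TPM in all libraries and passed no threshold without the block. In the blocked model it passed for the combination (log2 fold change 0.23, limma adjusted p = 0.0268) and for combination against palbociclib (0.40, limma adjusted p = 0.0239). The summed TPM of HK1, HK2 and HK3 was 143 ± 12.4 in control, 178 ± 10.7 with TCP, 233 ± 21.9 with palbociclib alone and 363 ± 31.1 with both (SD, n = 2). HK3 made up 7.44% ± 1.54 of it in control and 5.13% ± 0.0134 under TCP, but 46.5% ± 1.68 under palbociclib and 37.4% ± 4.11 under the combination. GPI, which turns glucose 6-phosphate into fructose 6-phosphate, was the most abundant gene of this step at 237 to 321 TPM. It passed no threshold, except under palbociclib with quantile normalization or median-ratio scaling.

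**Figure D2:**
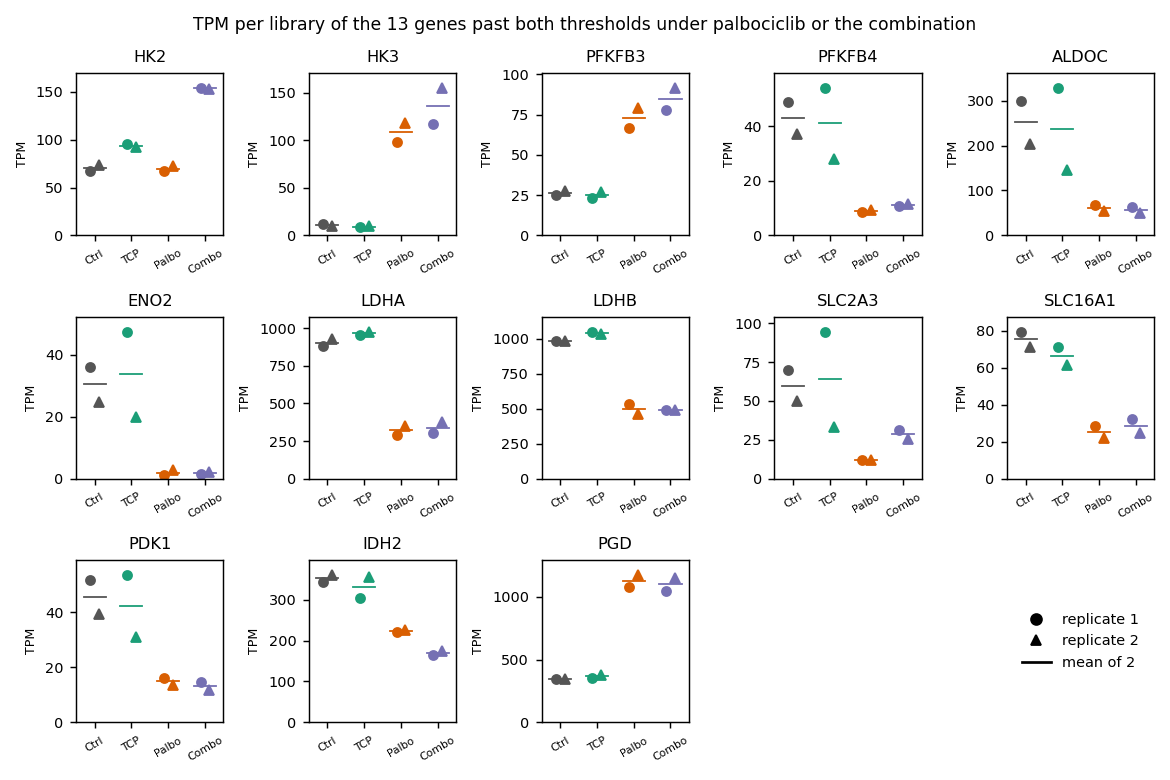
TPM in each of the 8 libraries (vertical axis from 0; circles replicate 1, triangles replicate 2, lines means of 2) for the 13 genes that were DEG under palbociclib or the combination, in control (Ctrl), TCP, palbociclib (Palbo) and combination (Combo) cells. HK2 is highest in the combination, SLC2A3 is lowest under palbociclib, and in ALDOC, ENO2, PFKFB4, PDK1 and SLC2A3 replicate 1 lies above replicate 2 in control and TCP cells.

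Phosphofructokinase is tuned by fructose 2,6-bisphosphate, which PFKFB3 mainly makes, as its kinase activity far exceeds its phosphatase activity, and which PFKFB4 both makes and breaks down. PFKFB3 (chromosome 10, 6186897 to 6296607) was at 24.9 and 27.3 TPM in control, 23.3 and 26.6 TPM with TCP, 66.9 and 78.9 TPM with palbociclib alone and 77.6 and 91.5 TPM with both molecules. PFKFB4 (chromosome 3, 48555117 to 48599448) was at 48.7 and 37.2 TPM in control, 53.9 and 28.1 TPM with TCP, 8.37 and 9.34 TPM with palbociclib alone and 10.7 and 11.5 TPM with both molecules. The isoforms moved in opposite directions and the libraries with palbociclib did not overlap those without it for either gene. PFKFB3 had a log2 fold change of 1.44 (SE 0.13, limma adjusted p = 0.000301) under palbociclib and 1.66 (limma adjusted p = 0.000102) under the combination. PFKFB4 was at -2.15 (SE 0.28, limma adjusted p = 0.00125) and -1.85 (limma adjusted p = 0.00161). The ratio of PFKFB3 to PFKFB4 was 0.622 ± 0.155 in control, 0.690 ± 0.364 with TCP, 8.22 ± 0.324 with palbociclib alone and 7.61 ± 0.487 with both molecules, while the sum of both stayed between 54.7 and 103 TPM. The PFKFB4 call under palbociclib missed the adjusted p threshold without control replicate 1, palbociclib replicate 1 or palbociclib replicate 2 (limma adjusted p from 0.0101 to 0.0108). It missed it under the combination without control replicate 1 or either combination replicate (0.0124 to 0.0137).

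Among the phosphofructokinases themselves, PFKL, the liver-type subunit, was the most abundant at 136 to 162 TPM, with log2 fold changes of 0.17 and 0.19 that passed in the blocked model (limma adjusted p = 0.0449 and 0.0284), with quantile normalization and with median-ratio scaling, but not otherwise. PFKP, the platelet-type subunit, was at 92.6 and 93.0 TPM in control and 103 and 90.5 TPM with TCP, and fell to 58.6 and 60.7 TPM with palbociclib alone and 45.6 and 52.6 TPM with both molecules. The fall was 0.63 (limma adjusted p = 0.00248) and 0.91 (limma adjusted p = 0.000375) on the log2 scale. PFKM, the muscle-type subunit, was near the detection filter at 1.43 to 4.15 TPM and passed no threshold without the block. PFKL therefore made up 59.1% ± 0.263 of the phosphofructokinase TPM in control, 71.5% ± 0.269 with palbociclib alone and 75.2% ± 0.954 with both (SD, n = 2).

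**Figure D3:**
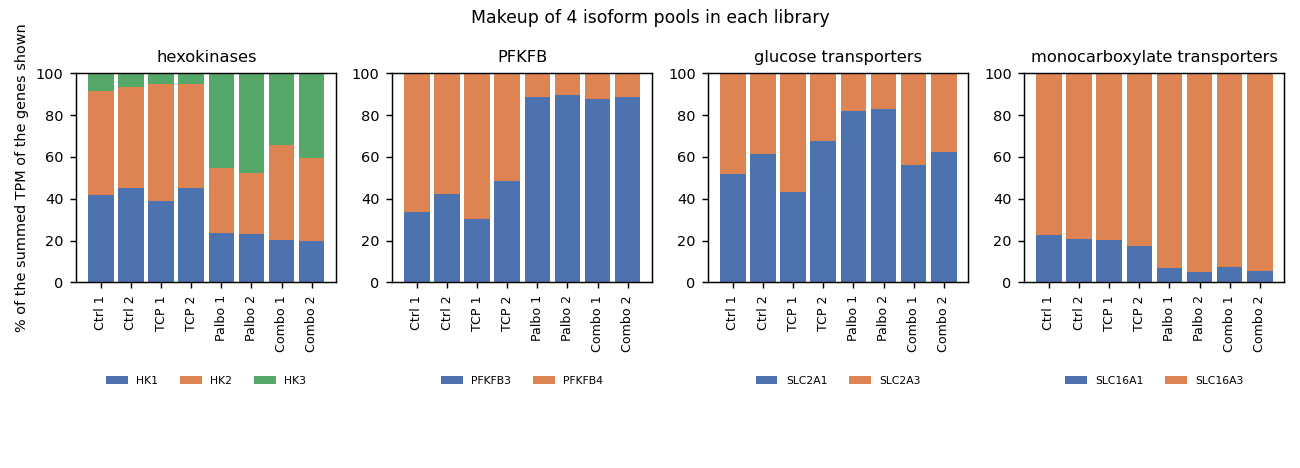
Share (%) of each isoform in the summed TPM of 4 pools, 1 bar per library: hexokinases, PFKFB enzymes, glucose transporters and monocarboxylate transporters. HK3 takes 34.5% to 47.7% of hexokinase TPM and PFKFB3 87.9% to 89.4% of PFKFB TPM in the 4 libraries with palbociclib, and the share of SLC2A3 is lowest in the palbociclib libraries.

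Of the 9 lower glycolysis genes, from aldolase to pyruvate kinase, 7 fell under palbociclib and under the combination, where 30.2% and 37.6% of all genes fell. Of the 7, 2 (ALDOC and ENO2) were DEG in both comparisons. ENO2 (chromosome 12, 7022909 to 7032861), the enolase isoform of neurons, was at 35.98 and 24.9 TPM in control, 47.5 and 20.0 TPM with TCP, 1.19 and 2.77 TPM with palbociclib alone and 1.62 and 2.29 TPM with both molecules. Control was 15.4 times the palbociclib mean, and 25.6 times without palbociclib replicate 2. The log2 fold change was -3.43 (SE 0.43, limma adjusted p = 0.00106) under palbociclib and -3.40 (limma adjusted p = 0.000726) under the combination. ENO2 supplied 3.79% ± 0.654 of enolase TPM in control and 0.458% ± 0.260 under palbociclib (SD, n = 2), so that ENO1, the ubiquitous enolase, made up most of the pool. ENO1 itself was at 810 and 724 TPM in control, 907 and 740 TPM with TCP, 432 and 429 TPM with palbociclib alone and 421 and 452 TPM with both molecules. It fell by 0.83 (limma adjusted p = 0.00133) and 0.81 (limma adjusted p = 0.00102) on the log2 scale.

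ALDOC (chromosome 17, 26900133 to 26903966), the aldolase isoform of brain, was at 299 and 204 TPM in control, 328 and 147 TPM with TCP, 67.9 and 54.4 TPM with palbociclib alone and 62.1 and 49.5 TPM with both molecules. All 4 libraries with palbociclib lay below the other 4. The log2 fold change was -2.01 (SE 0.37, limma adjusted p = 0.00478) under palbociclib and -2.14 (limma adjusted p = 0.00277) under the combination. ALDOA, the main aldolase, was at 1191 and 1112 TPM in control, 1223 and 1180 TPM with TCP, 835 and 914 TPM with palbociclib alone and 836 and 925 TPM with both molecules. It fell by 0.40 (limma adjusted p = 0.00848) and 0.39 (limma adjusted p = 0.00756) on the log2 scale. ALDOA no longer passed with median-ratio scaling (log2 fold change -0.23 and -0.16, limma adjusted p = 0.0832 and 0.202), without control replicate 1, or without replicate 1 of the treated group (0.0523 to 0.0574). ALDOC missed the adjusted p threshold under palbociclib when any 1 control, palbociclib or combination library was left out (limma adjusted p from 0.0109 to 0.0363). It missed it under the combination without control replicate 1 or either combination replicate (0.0136 to 0.0237).

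GAPDH, which oxidizes glyceraldehyde 3-phosphate and is widely used as a reference gene, was the most abundant of the 38. It was at 5278 and 5191 TPM in control, 5540 and 5489 TPM with TCP, 3369 and 3670 TPM with palbociclib alone and 3529 and 3828 TPM with both molecules. It fell by 0.57 (SE 0.08, limma adjusted p = 0.00156) and 0.51 (limma adjusted p = 0.0018) on the log2 scale, from rank 9 or 10 among all genes in the libraries without palbociclib to ranks between 18 and 21 in those with it. Without the filter on low values GAPDH no longer passed (limma adjusted p = 0.277 and 0.319).

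TPI1, which interconverts the triose phosphates, was at 834 and 800 TPM in control, 825 and 858 TPM with TCP, 475 and 486 TPM with palbociclib alone and 457 and 490 TPM with both molecules. It fell by 0.76 (limma adjusted p = 0.000323) and 0.79 (limma adjusted p = 0.000159) on the log2 scale. PGK1, the first ATP-yielding step, was at 934 and 783 TPM in control, 1037 and 778 TPM with TCP, 552 and 538 TPM with palbociclib alone and 526 and 571 TPM with both molecules. It fell by 0.65 (limma adjusted p = 0.0108) and 0.64 (limma adjusted p = 0.00922) on the log2 scale. Without control replicate 1 the adjusted p of PGK1 was 0.0663 and 0.0593. It was 0.0596 under palbociclib without palbociclib replicate 2 and 0.0571 under the combination without combination replicate 1. PGAM1, the next enzyme, differed in direction. It was at 169 and 164 TPM in control, 160 and 175 TPM with TCP, 188 and 199 TPM with palbociclib alone and 208 and 219 TPM with both molecules. It rose in the combination by a log2 fold change of 0.35 (limma adjusted p = 0.00687, 0.0541 without combination replicate 2). Under palbociclib its log2 fold change was 0.21 (limma adjusted p = 0.0556, 0.0247 in the blocked model). Its coding copy PGAM4 is nearly identical, so that the level of each is uncertain. PKM, a pyruvate kinase, was at 757 and 840 TPM in control, 976 and 1132 TPM with TCP, 775 and 823 TPM with palbociclib alone and 1002 and 1097 TPM with both molecules. The 4 libraries with TCP lay above the 4 without it, and PKM rose in the combination by 0.39 (limma adjusted p = 0.0145, but 0.0894 without control replicate 1 and 0.0961 without combination replicate 2). Combination against palbociclib gave 0.39 (limma adjusted p = 0.0946, 0.0127 in the blocked model). Under TCP alone the change was 0.40 (SE 0.10, limma adjusted p = 0.243, 0.0301 in the blocked model).

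Lactate dehydrogenase closes the pathway, LDHA as the subunit of fermenting tissues and LDHB as that of oxidative ones. LDHA (chromosome 11, 18416107 to 18429972) was at 882 and 926 TPM in control, 957 and 978 TPM with TCP, 291 and 353 TPM with palbociclib alone and 303 and 374 TPM with both molecules. LDHB (chromosome 12, 21788276 to 21910791) was at 984 and 983 TPM in control, 1052 and 1035 TPM with TCP, 537 and 465 TPM with palbociclib alone and 493 and 488 TPM with both molecules. Both were lower in every library with palbociclib than in any without it. LDHA had a log2 fold change of -1.49 (SE 0.13, limma adjusted p = 0.000266) and -1.42 (limma adjusted p = 0.00017). LDHB was at -0.98 (SE 0.08, limma adjusted p = 0.000258) and -1.003 (limma adjusted p = 0.000124), at the fold threshold in both comparisons. LDHB was no DEG under the combination without combination replicate 2 (log2 fold change -0.996) or with median-ratio scaling (-0.77). The sum of both was 1888 ± 30.2 TPM in control, 2010 ± 2.61 TPM with TCP, 823 ± 7.57 TPM with palbociclib alone and 829 ± 46.6 TPM with both (SD, n = 2). LDHA made up 47.9% ± 0.885 of it in control and 39.2% ± 5.65 under palbociclib.

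At the entry of pyruvate into the mitochondrion, PDK1 is a kinase that switches pyruvate dehydrogenase off and PDHA1 is the catalytic subunit it acts on. PDK1 (chromosome 2, 173420101 to 173473397) was at 51.9 and 39.4 TPM in control, 53.6 and 31.2 TPM with TCP, 16.2 and 13.6 TPM with palbociclib alone and 14.6 and 11.8 TPM with both molecules. It was lower in all libraries with palbociclib than in those without. The log2 fold change was -1.54 (SE 0.26, limma adjusted p = 0.00348) and -1.71 (limma adjusted p = 0.00166). The palbociclib call missed the threshold without any 1 of the control or palbociclib libraries (limma adjusted p from 0.0129 to 0.0284). So did the combination call without control replicate 1 or combination replicate 2 (0.0139 and 0.0161). PDHA1 was at 66.4 and 69.3 TPM in control, 61.1 and 63.6 TPM with TCP, 56.1 and 53.4 TPM with palbociclib alone and 46.3 and 46.0 TPM with both molecules. It fell by 0.30 (limma adjusted p = 0.0126) and 0.55 (limma adjusted p = 0.000852) on the log2 scale. Its palbociclib call was lost with quantile normalization and median-ratio scaling (limma adjusted p = 0.0959 and 0.202) and without control replicate 2 or palbociclib replicate 2 (0.0774 and 0.0802).

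Of the 9 genes grouped with the TCA cycle, among them IDH1 and MDH1 of the cytosol, 6 fell under palbociclib and 6 under the combination. Of all genes, 30.2% and 37.6% fell. Among the 9, 1 was a DEG. IDH2 (chromosome 15, 90626277 to 90645709), the mitochondrial NADP-dependent isocitrate dehydrogenase, was at 344 and 360 TPM in control, 304 and 355 TPM with TCP, 221 and 226 TPM with palbociclib alone and 164 and 174 TPM with both molecules. The combination libraries were the lowest and the palbociclib libraries lay between them and the rest. The log2 fold change of IDH2 was -0.65 (SE 0.09, limma adjusted p = 0.00146) with palbociclib alone. It was -1.06 (limma adjusted p = 0.000143) under the combination. Combination against palbociclib gave -0.40 (limma adjusted p = 0.0631, 0.0181 in the blocked model). With quantile normalization and median-ratio scaling the change under the combination was -0.93 and -0.82, below the fold threshold. The other 5 decreases were smaller.

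IDH3A, a subunit of the NAD-dependent isocitrate dehydrogenase, was at 64.9 and 68.8 TPM in control, 62.6 and 70.1 TPM with TCP, 41.2 and 39.9 TPM with palbociclib alone and 43.5 and 38.9 TPM with both molecules. It fell by 0.71 (limma adjusted p = 0.00127) and 0.69 (limma adjusted p = 0.000994) on the log2 scale. FH, the fumarase, was at 71.4 and 79.5 TPM in control, 81.1 and 80.4 TPM with TCP, 45.5 and 44.1 TPM with palbociclib alone and 44.1 and 41.7 TPM with both molecules. All its libraries with palbociclib lay below the other 4. FH fell by 0.74 (limma adjusted p = 0.000635) and 0.80 (limma adjusted p = 0.000285) on the log2 scale. SUCLG1, a subunit of succinyl-CoA ligase, was at 78.0 and 76.5 TPM in control, 81.7 and 75.9 TPM with TCP, 55.8 and 50.3 TPM with palbociclib alone and 47.8 and 47.0 TPM with both molecules. It fell by 0.54 (limma adjusted p = 0.00223) and 0.69 (limma adjusted p = 0.000526) on the log2 scale. MDH1, the cytosolic malate dehydrogenase, was at 163 and 155 TPM in control, 171 and 154 TPM with TCP, 138 and 120 TPM with palbociclib alone and 109 and 109 TPM with both molecules. It fell by 0.30 (limma adjusted p = 0.0313) and 0.54 (limma adjusted p = 0.00257) on the log2 scale. Its palbociclib call was lost with quantile normalization and median-ratio scaling (limma adjusted p = 0.191 and 0.219) and without either control replicate, palbociclib replicate 2 or either combination replicate (0.0582 to 0.174). MDH2, its mitochondrial counterpart, was at 190 and 193 TPM in control, 202 and 208 TPM with TCP, 155 and 146 TPM with palbociclib alone and 141 and 143 TPM with both molecules. It fell by 0.34 (limma adjusted p = 0.00539) and 0.43 (limma adjusted p = 0.00158) on the log2 scale, and passed in neither comparison with median-ratio scaling (limma adjusted p = 0.1002 and 0.067).

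CS, the citrate synthase, IDH1, the cytosolic counterpart of IDH2, and OGDH, of the 2-oxoglutarate dehydrogenase complex, passed no threshold against control. IDH1 did so in the blocked model (log2 fold change 0.30 and 0.24, limma adjusted p = 0.0151 and 0.0299) and with median-ratio scaling, and CS under palbociclib with quantile normalization. CS was between 261 and 321 TPM and OGDH between 65.5 and 88.7 TPM. IDH1 was at 113 and 91.4 TPM in control, 96.5 and 75.2 TPM with TCP, 133 and 117 TPM with palbociclib alone and 125 and 115 TPM with both molecules. It was higher in the combination than with TCP (log2 fold change 0.49, limma adjusted p = 0.0315), but not without TCP replicate 2 or either combination replicate (0.081 to 0.141). The summed TPM of the 9 genes was 1389 ± 19.9 in control, 1370 ± 55.6 with TCP, 1152 ± 24.2 with palbociclib alone and 1014 ± 11.9 with both (SD, n = 2).

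Of the 3 pentose phosphate genes, 2 rose under palbociclib and under the combination, where 14.8% and 15.9% of all genes rose. PGD (chromosome 1, 10458649 to 10480568), the 6-phosphogluconate dehydrogenase of the NADPH-making branch, was at 347 and 348 TPM in control, 351 and 380 TPM with TCP, 1075 and 1172 TPM with palbociclib alone and 1048 and 1147 TPM with both molecules. The libraries with palbociclib were far above the rest, at 3.23 times control under palbociclib and 3.16 times under the combination. The log2 fold change was 1.69 (SE 0.08, limma adjusted p = 4.75e-05) and 1.65 (limma adjusted p = 2.76e-05). TKT, the transketolase of the branch that returns sugars to glycolysis, was at 368 and 400 TPM in control, 400 and 416 TPM with TCP, 579 and 610 TPM with palbociclib alone and 504 and 534 TPM with both molecules. It rose by a log2 fold change of 0.63 (limma adjusted p = 0.000842) and 0.43 (limma adjusted p = 0.00271). TALDO1, the transaldolase beside it, was between 459 and 696 TPM and passed only in the blocked model (log2 fold change 0.21 and 0.29, limma adjusted p = 0.0128 and 0.00314). The ratio of PGD to GAPDH was 0.0664 ± 0.00092 in control, 0.0663 ± 0.00403 with TCP, 0.319 ± 0.000179 with palbociclib alone and 0.298 ± 0.0019 with both (SD, n = 2).

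Summed over 18 glycolysis enzymes, from hexokinase to lactate dehydrogenase without the PFKFB isoforms, the level was 12589 ± 306 TPM in control, 13480 ± 393 TPM with TCP, 8482 ± 339 TPM with palbociclib alone and 8994 ± 530 TPM with both (SD, n = 2). PGD, TKT and TALDO1 together were at 1238 ± 90.7, 1325 ± 128, 2306 ± 184 and 2236 ± 198 TPM in the same order. Abundant genes weigh most in such sums. GAPDH alone made up 5234 TPM of the glycolysis sum in control, 3520 TPM with palbociclib alone and 3678 TPM with both molecules. Of the 18 enzymes, HK1, HK2, HK3, GPI, PFKL, PFKM, PGAM1 and PKM did not fall under palbociclib or the combination. All 38 genes together held 1.57% to 1.70% of the TPM of a library without palbociclib and 1.22% to 1.34% of a library with it.

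**Figure D4:**
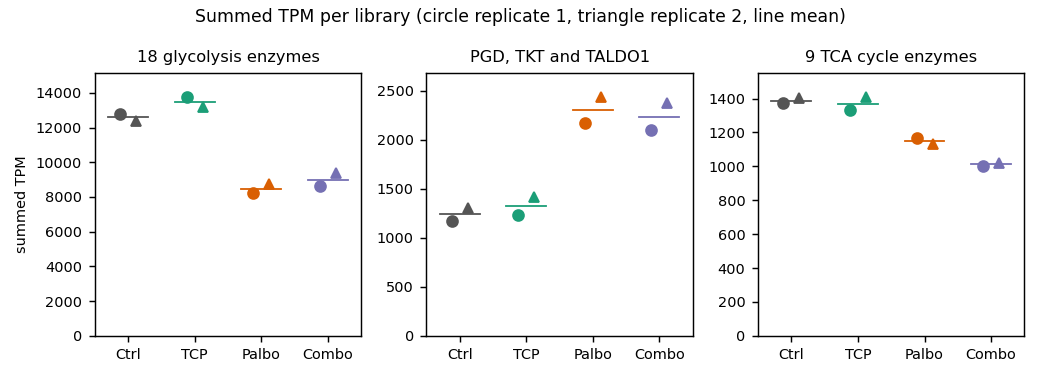
Summed TPM per library (vertical axes from 0; circles replicate 1, triangles replicate 2, lines means of 2) of 18 glycolysis enzymes, of PGD, TKT and TALDO1, and of the 9 genes grouped with the TCA cycle (cytosolic IDH1 and MDH1 included) in control (Ctrl), TCP, palbociclib (Palbo) and combination (Combo) cells. The libraries with palbociclib lie below the others for glycolysis and the TCA cycle and above them for the pentose phosphate genes.

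Combination against TCP gave 10 DEG among the 38, 3 higher (HK3, PGD and PFKFB3) and 7 lower (LDHA, LDHB, ENO2, ALDOC, PFKFB4, PDK1 and SLC16A1), where 12.2% of all genes were DEG (5.46% higher and 6.70% lower). When either combination replicate was left out, ALDOC, PFKFB4 and PDK1 lost this call (limma adjusted p from 0.0125 to 0.0342), as did SLC16A1 without combination replicate 2 (0.0106). In the blocked model PFKM (log2 fold change -0.50, limma adjusted p = 0.0192), SLC2A3 (-0.96, 0.0373) and TALDO1 (0.17, 0.0268) also passed the wider threshold against TCP. Combination against palbociclib gave HK2 alone as a DEG, and with an adjusted p below 0.05 HK2 rose and SLC2A1 fell, where 3.49% of all genes passed. Without palbociclib, 0 of the 38 passed that threshold under TCP, where 0.431% of all genes did. For the interaction, 0 of the 38 and 0% of all genes were DEG by limma, while 5 of the 38 (HK2, PFKP, SLC2A1, IDH2 and TKT) and 904 of the 14151 genes had an unadjusted p below 0.05. At this size, the smallest two-sided p of an exact permutation test on 1 gene is 0.333.

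Replicates differed in a few of these genes. In TCP cells, replicate 1 exceeded replicate 2 by 1.48 on the log2(TPM + 1) scale for SLC2A3, 1.21 for ENO2, 1.16 for ALDOC, 0.92 for PFKFB4 and 0.76 for PDK1, and in control cells by 0.48, 0.51, 0.55, 0.38 and 0.39. The same gaps were between -0.33 and 0.32 under the combination and between -0.79 (ENO2) and 0.31 under palbociclib. In TCP cells 5 of the 38 genes had a gap above 0.5, against 9.3% of all genes. Over 10 other known targets of the hypoxia factor HIF-1, among them BNIP3 and VEGFA, the median gap was 0.87 in TCP cells, 0.39 in control cells, 0.05 under palbociclib and 0.00 under the combination. Of these 10 targets, 4 were DEG and lower both under palbociclib and under the combination (BNIP3, VEGFA, P4HA1 and DDIT4), where 4.56% and 7.82% of all genes were. ADM of the same list instead rose under the combination (log2 fold change 1.51, limma adjusted p = 0.0311) and was at 1.22 under palbociclib (limma adjusted p = 0.0724, 0.0215 in the blocked model). The part of these hypoxia targets in the metabolic changes was not tested.

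A wider list of the same pathways held 65 further genes, of which 52 passed the filter. Under palbociclib 3 were DEG and higher (among them SLC2A6 and PGAM2) and 4 lower (PCK2, GPD2, GOT1 and PDP2), and under the combination 4 were higher (among them SLC2A6, PGAM2 and FBP1) and 6 lower (PCK2, GPD2, RPIA, PGM1, GOT1 and SUCLG2). These counts stand beside 4.54% of all genes higher and 4.56% lower under palbociclib, and 5.87% and 7.82% under the combination. SLC2A5, a fructose carrier, was a DEG under the combination in the blocked model (log2 fold change -1.11, limma adjusted p = 0.000171, 0.0201 without the block). RPIA, which makes ribose 5-phosphate in the pentose phosphate pathway, had a log2 fold change of -0.83 (limma adjusted p = 0.00098) and -1.51 (limma adjusted p = 6.7e-05). PCK2, the mitochondrial phosphoenolpyruvate carboxykinase, showed the largest decrease of the list, at -3.43 and -2.76, and SLC2A6, a lysosomal transporter of the glucose carrier family, the largest increase, at 3.29 and 3.49. In combination against palbociclib, PC, the pyruvate carboxylase that refills the TCA cycle, was the only DEG of the list (log2 fold change 1.25). PC was at 3.67 and 3.23 TPM in control and 5.61 and 5.25 TPM with TCP. With palbociclib alone it was lower than control, at 1.48 and 1.56 TPM. With both molecules it was near the level with TCP, at 5.21 and 4.83 TPM.

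Among known regulators, MYC, which drives glycolytic genes in proliferating cells, fell by 0.90 (SE 0.07, limma adjusted p = 0.000191) under palbociclib and by 0.94 (limma adjusted p = 9.14e-05) under the combination on the log2 scale. HIF1A, the oxygen-regulated subunit of HIF-1, rose by a log2 fold change of 0.48 (limma adjusted p = 0.00461) and 0.35 (limma adjusted p = 0.0137). TXNIP, which restrains glucose uptake, was at a log2 fold change of 0.44 with palbociclib alone (limma adjusted p = 0.124, 0.0017 in the blocked model) and rose by 0.72 under the combination (limma adjusted p = 0.0221), and ARRDC4, its relative, rose by 1.12 under the combination, the only DEG of the 13 regulators tested. EPAS1, which encodes the oxygen-regulated subunit of HIF-2, had log2 fold changes of 1.26 and 1.11 (limma adjusted p = 0.016 and 0.0215) and was a DEG in the blocked model (0.00313 and 0.00413). Of the drug targets, CDK4 had a log2 fold change of -0.77 (limma adjusted p = 0.00121) and -1.07 (limma adjusted p = 0.000214). It was a DEG under the combination only. CDK6 was at -0.14 under palbociclib, which passed no threshold (limma adjusted p = 0.302), and fell by 0.49 under the combination (limma adjusted p = 0.00766). KDM1A, which encodes LSD1, was at -0.86 and -0.81 (limma adjusted p = 0.000427 and 0.000315). TCP alone left KDM1A at -0.02 (95% interval from -0.21 to 0.18).

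Other features of the libraries moved with these changes. All 16 cell cycle genes of a marker list were DEG and lower under the combination, and 13 under palbociclib, where 7.82% and 4.56% of all genes were. Of 8 genes of myeloid maturation, 8 were DEG and higher under the combination and 6 under palbociclib, where 5.87% and 4.54% of all genes were. Not called under palbociclib were ITGAM (log2 fold change 0.09, limma adjusted p = 0.833) and CD86 (-0.53, limma adjusted p = 0.200). The summed level of the maturation genes, most of it LYZ, was 320 to 1839 TPM without palbociclib and 19414 to 39172 TPM with it. That of the cell cycle genes was 3071 to 3820 TPM and 1184 to 1674 TPM. The part of either list in the metabolic changes was not tested. The 10 most abundant genes took 9.12% to 9.67% of TPM without palbociclib and 14.0% to 15.8% with it, and as TPM has a fixed sum, the share left to all other genes was smaller. The study's methods describe its cell lines as cocultured on HS-5 stromal cells. Of 13 stromal markers, 7 passed the filter. TAGLN, at 8.30 to 17.7 TPM, was a large part of the lower sums. COL1A1 was at 0.18 and 1.23 TPM in control, 0.15 and 1.79 TPM with TCP, 1.32 and 22.2 TPM with palbociclib alone and 2.29 and 3.78 TPM with both molecules. COL1A1 and FN1 were higher in replicate 2 than in replicate 1 of every group. The summed level was 13.2 to 38.3 TPM in 7 libraries and 113 TPM in palbociclib replicate 2. Without that library 6 of the 38 genes were DEG under palbociclib, among them LDHA, HK3 and PGD. The 9 markers of the myeloid line summed to 956 to 1367 TPM, but single markers moved in opposite directions. Under palbociclib 1 was DEG and higher (CD4, log2 fold change 1.26) and 1 lower (FLT3, -1.52), where 4.54% and 4.56% of all genes were. Under the combination 2 were higher (among them CD4, 1.18) and 1 lower (FLT3, -1.71), where 5.87% and 7.82% of all genes were. Of 11 lymphoid, erythroid and platelet markers, 8 were under 1 TPM in every library. NKG7 of that list was at 168 to 311 TPM and rose by a log2 fold change of 0.80 and 0.73 (limma adjusted p = 0.00114 and 0.00115).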

How the data were processed

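RNA-seq of MV4-11 cells in 4 groups of 2 libraries was analysed from the deposited TPM. According to the processing notes and methods, the authors mapped reads to hg19 with subread-align, used SAMtools 1.9, counted genes with featureCounts 1.6.4, ran DESeq2 1.26.0 and deposited TPM. The annotation, gene lengths and strand setting are not given in the sources used here, and TPM keeps no depth, so the depth is unknown and no counting interval is given. From these, log2(TPM + 1) was tested here with limma 3.58.1 (R 4.3.3; trend, 4 group coefficients, 4 residual degrees of freedom) on 14151 genes. The test was tried on simulated data whose noise was independent between libraries, which does not cover libraries that deviate together. Same-numbered libraries deviated together across genes (r from 0.169 to 0.491 over the 6 pairs of groups), so the replicate number was tried as a block, although no label says what the numbers share. The members and gene lists were chosen with earlier results of these data known. All 38 members could be named; those that were DEG or passed the wider rule are given with their values, and other lists by counts, their DEG and fixed regulators. A gene of the wider pathway list is counted there but not reported here by name. Alternatives were another pseudocount, filter, scaling, trend, threshold and sample set, the block, and each library left out. Gene coordinates are from GENCODE on GRCh37. Reads of pseudogenes of GAPDH, LDHA, PKM or TPI1 could have been counted with their parent.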

Additional observations from a re-analysis of the deposited data

How the results depend on the processing

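No member changed direction in a result that passed a threshold. The shares of all genes that passed, given above, belong to the main fit. No such share is given for the alternatives in this section, so their counts of members stand without a background. HK3, PFKFB3, PGD, LDHA and SLC16A1 (palbociclib and combination against control) and HK2 (combination against control) kept their DEG call in all 16 alternatives. Without the filter on low values, the DEG among the 38 genes were 5 under palbociclib, 5 for combination against TCP and 8 for combination against control; ALDOC, ENO2, PDK1 and PFKFB4 were lost in each, with SLC2A3 under palbociclib and SLC16A1 against TCP. With an adjusted p below 0.05 at any fold the counts were 27 under palbociclib, 29 under the combination, 29 for combination against TCP and 2 against palbociclib. When only the groups compared were fitted, 0 DEG remained for combination against palbociclib. Leaving out 1 library gave 6 to 10 DEG under palbociclib (6 without control replicate 1 or palbociclib replicate 2) and 0 to 1 for combination against palbociclib; a lone library is then assumed to vary like the other groups.

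Scaling moved the medians. Quantile normalization gave a median log2 fold change of the 38 genes of -0.26 under palbociclib, -0.38 under the combination and -0.44 for combination against TCP. Median-ratio scaling gave -0.20, -0.29 and -0.38 for these, 0.0949 under TCP, 0.075 for combination against palbociclib and -0.0267 for the interaction. The median of all genes moved from -0.16 and -0.22 to -0.05 and -0.07 (quantile) and -0.01 and -0.01 (median-ratio) under palbociclib and the combination, and the share of higher genes among all DEG from 49.9% and 42.8% to 61.0% and 56.4%, and to 66.4% and 61.9%. Leaving out 1 library gave medians of 0.0127 to 0.0816 under TCP, -0.0327 to 0.0494 for combination against palbociclib and -0.1193 to -0.0214 for the interaction. The cause of these shifts was not tested.

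The replicate block changed no DEG count of the 38 genes (10 under palbociclib, 12 under the combination). With an adjusted p below 0.05 it gave 1 gene under TCP (PKM), 9 higher and 22 lower under palbociclib, 12 and 22 under the combination, and 3 (HK1, HK2 and PKM) and 2 (SLC2A1 and IDH2) for combination against palbociclib, a threshold combined with the block after seeing the data. With unknown depth, changes in genes near 1 TPM, such as PFKM and ENO2 with palbociclib, are the least certain.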
